A study of Mus musculus with 768 samples.

Results

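The genes carried by the mitochondrial genome were followed across single cells of the mouse dentate gyrus. All rows of the deposited count table whose symbol begins with mt- were taken, which gave 26 of 32679 genes: 9 protein genes, 2 ribosomal RNA genes and 15 transfer RNA genes. The annotation (GENCODE M21, build GRCm38) lists 37 genes on chromosome M, and 11 of them, among them mt-Co2, mt-Atp6, mt-Atp8 and mt-Nd4l, had no row in the table and were not analysed here. The level of a gene is given in CPM, its counts after scaling each well to the same total, and the mitochondrial share is the percentage of a well's counts that fell on the 26 genes.

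Cells positive for the Nestin:GFP reporter, in which regulatory sequence of the stem cell gene Nes drives green fluorescent protein, were sorted from 8 male Nestin:GFP mice aged 2 months. Mice 1, 3, 5 and 7 received a negative control oligonucleotide and mice 2, 4, 6 and 8 a miR-132 mimic, a synthetic copy of that microRNA. Each dose was 150 pmol in 3 µl with lipofectamine 2000, given weekly for 5 weeks, so both groups carried the reporter and received the lipid. Mice 1 to 4 were sorted on day 17 and mice 5 to 8 on day 19 of April 2018, and the series text puts "AD" before the tissue without explaining it. The labels report 94 sorted cells for each mouse and the table has 96 wells for each.

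Mitochondria keep a small circular genome. Its protein genes encode subunits of the respiratory chain complexes I, III and IV and of ATP synthase (complex V), and its rRNA genes encode the RNAs of the mitochondrial ribosome. Long transcripts of both strands are cut into single RNAs, largely at the tRNAs that lie between the other genes, and most mitochondrial mRNAs and the rRNAs then gain short poly(A) tails, which an oligo-dT primer can capture. All other respiratory chain subunits are encoded in the nucleus. The share of reads on mitochondrial genes is widely used as a quality measure of single-cell libraries, since cells that lose cytoplasmic RNA keep their mitochondria.

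Several of these genes have nuclear copies of nearly the same sequence. A block of 7 annotated pseudogenes on the minus strand of chromosome 1 (24611535 to 24616197, 4663 bases) carries copies of mt-Nd4, mt-Nd4l, mt-Nd3, mt-Co3, mt-Atp6, mt-Co2 and mt-Co1. The last bases of 4 genes and of their copies are shown because a read over nearly all of each gene has the same letters in both places. Capitals mark bases of the mitochondrial transcript that the annotated copy lacks.
mt-Co2: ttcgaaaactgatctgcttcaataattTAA
Gm28661: ttcgaaaactgatctgcttcaataatt
mt-Atp6: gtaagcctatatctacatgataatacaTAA
Gm10925: gtaagcctatatctacatgataataca
mt-Co3: tatacgtctccatttattgatgaggatctT
Gm28437: tatacgtctccatttattgatgaggatct
mt-Nd3: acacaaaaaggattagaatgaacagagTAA
Gm28438: acacaaaaaggattagaatgaacagag

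The first 681 of 684 bases of mt-Co2 are identical to Gm28661, the first 678 of 681 bases of mt-Atp6 to Gm10925, and the first 783 of 784 bases of mt-Co3 to Gm28437. mt-Nd3 and Gm28438 differ over 345 bases by T3C, with positions counted from the first base of the mitochondrial gene. For mt-Nd4 and mt-Co1 the chromosome 1 copy covers only a stretch of the gene. The edge of that stretch is shown, with bases outside the annotated copy in capitals.
mt-Nd4: tactcctcagttagcCACATAGCACTTGTT
mt-Co1: TTATTTACAGTTGGTggtctaaccggaatt

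The mt-Nd4 bases are 862 to 891, where the shared first 876 of 1378 bases end. The mt-Co1 bases are 1039 to 1068. Among those in lower case, Gm29216 differs at 6 (T1056A, C1057T, A1059G, A1060G, C1062A and A1066T). From base 1067 the gene is identical to Gm29216 to its end at 1545.

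Of all 50-base windows, the share also found in an annotated transcript of another chromosome was 100% for mt-Co2, 99.9% for mt-Co3, 99.5% for mt-Atp6, 98.8% for mt-Nd4l and 98.0% for mt-Nd3. It was 62.2% for mt-Nd4, 51.1% for mt-Co1, 8.19% for mt-Nd2, 7.61% for mt-Nd5 and 1.04% for mt-Rnr2, and 0% for mt-Rnr1, mt-Nd1, mt-Nd6, mt-Cytb and mt-Atp8. Of the genes with nearly all windows shared, mt-Co2, mt-Atp6 and mt-Nd4l had no row, while mt-Nd3 and mt-Co3 had one. mt-Co3, the third subunit of cytochrome c oxidase (complex IV), had 1 read over all 768 wells. mt-Atp8 and the tRNA genes mt-Tw, mt-Ty, mt-Ts1, mt-Td, mt-Tk, mt-Tg and mt-Th also had no row, and share no window with an annotated transcript. Sequence between the annotated pseudogenes was not searched. In the chromosome 1 block 233 such bases lie between the copies of mt-Atp6 and mt-Co2. On chromosome M, mt-Tk and the start of mt-Atp8 lie between these 2 genes. Whether these bases hold copies of them was not tested. The 7 pseudogenes of the chromosome 1 block had 147 counts in all kept wells. Another copy of mt-Co1, Gm13340 on chromosome 2, is 1545 bases long and shares 411 windows with it. Gm13340 had 431 counts, in 213 kept wells. The sources used here do not say how the authors' counting treated reads that match several places, and its part in the levels of mt-Co3, mt-Nd3, mt-Nd4 and mt-Co1 was not tested.

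Wells with at least 50000 counts and 1000 genes were kept, which left 675 of 768, or 75 to 92 per mouse. Their median depth was 646537 counts and 2741 genes, and the sum per mouse was 43889169 to 66897586 counts. The labels give 2 maps from wells to mice that agree on the treatment of 384 wells and on the mouse of 96, out of 768. The map by sample descriptions is used here, and the one by sample titles is the alternative. Class tests on single genes and counts of mice with a given sign used the first map alone. The 16 wells with more than 6000 genes fall 2 to each mouse in the first map, and in mice 1, 2 and 6 alone in the second. Clusters made without the mitochondrial genes were named from marker genes and are called "like" a cell type. They gave 300 oligodendrocyte-like, 107 endothelial-like, 95 astrocyte-like, 72 pericyte-like, 38 neuroblast-like, 12 smooth muscle-like, 16 fibroblast-like and 18 oligodendrocyte precursor-like wells, with 17 unnamed. The sort had selected for a stem cell reporter. The stem cell markers were not used to name clusters, so none could be named for stem cells. Of 8 stem cell markers, 4 were detected in at least 25% of astrocyte-like wells, 3 in neuroblast-like, 2 each in oligodendrocyte-like, oligodendrocyte precursor-like and fibroblast-like wells, and 1 each in endothelial-like, pericyte-like and smooth muscle-like wells.

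The large ribosomal RNA dominated the mitochondrial counts. mt-Rnr2, the 16S rRNA (chromosome M, 1094 to 2675, plus strand), took 53.1% of them in kept wells, with a level of 12740 ± 1708 CPM (SD, n = 8 mice). mt-Rnr1, the 12S rRNA (70 to 1024), took 5.75% at 1395 ± 206 CPM. Per kilobase, mt-Rnr2 stood at 8053 and mt-Rnr1 at 1461 CPM. The rRNA genes together held 58.9% of mitochondrial counts, with a range over mice of 55.8% to 61.5%. The protein genes held 41.1% and the tRNA genes 0.0417%.

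Among protein genes the order of levels per kilobase was steep. mt-Cytb (14145 to 15288), the cytochrome b of complex III, stood at 2585 CPM per kilobase and mt-Co1 (5328 to 6872), the catalytic subunit of complex IV, at 2336. Their order per kilobase was not tested. Without division by length their levels over mice were 2958 ± 452 CPM and 3608 ± 570 CPM (SD, n = 8), with mt-Co1 above mt-Cytb in each mouse. If only the mt-Co1 windows without a nuclear match are counted as length, its level is 4780 CPM per kilobase, and its place relative to mt-Cytb changes.

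The complex I subunits followed. mt-Nd1 stood at 1197, mt-Nd5 at 573, mt-Nd4 at 222 and mt-Nd2 at 198 CPM per kilobase. mt-Nd4 and mt-Nd2 are close per kilobase, and on unshared length mt-Nd4 is at 587, near mt-Nd5 at 620. mt-Nd6, the only protein gene on the minus strand (13552 to 14070), was at 50.2 CPM per kilobase and 26.1 ± 4.77 CPM. mt-Nd3 was at 19.1 CPM per kilobase, with 98.0% of its windows shared. On its unshared length, estimated at only 6.98 bases, mt-Nd3 would be at 953 CPM per kilobase, so its place depends on the length used. mt-Co3 was at 0 in kept wells. Among the other rRNA and protein rows, levels per kilobase of annotated gene ran from 8053 for mt-Rnr2 down to 19.1 for mt-Nd3.

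Detection followed the level. mt-Rnr1, mt-Rnr2 and mt-Co1 had a count in all 675 kept wells, mt-Cytb in 674, mt-Nd1 in 668, mt-Nd5 in 658, mt-Nd2 in 656, mt-Nd4 in 638, mt-Nd6 in 518 and mt-Nd3 in 515. With each well thinned to 50000 counts, mt-Nd6 was seen in 48.3% of wells and mt-Nd3 in 23.3%. The 5 highest tRNA genes were mt-Tq at 4.34 ± 0.989, mt-Tp at 1.79 ± 0.552, mt-Tm at 0.973 ± 0.288, mt-Tc at 0.969 ± 0.413 and mt-Tf at 0.665 ± 0.239 CPM (SD, n = 8 mice). The other 10 tRNA rows had means from 0.00620 to 0.296 CPM. The library does not mark strand. Reads of minus-strand genes, among them mt-Tq, mt-Tp, mt-Tc and mt-Nd6, thus cannot be told apart from those of plus-strand precursors.

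**Figure D1:**
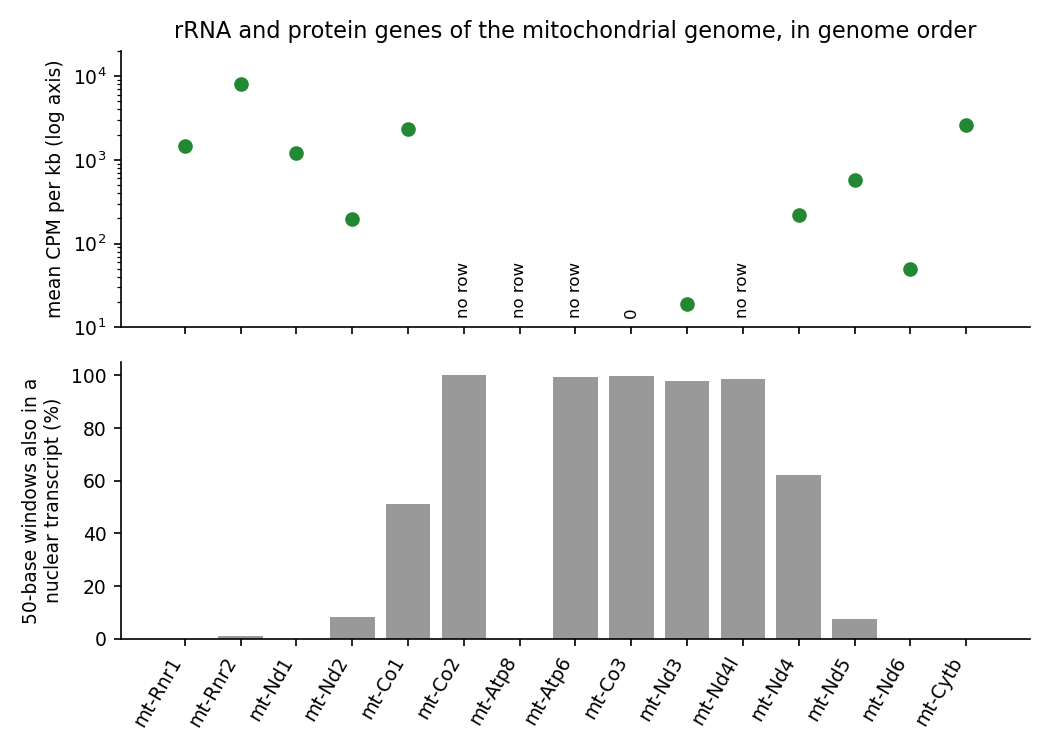
Top, mean level over 8 mice (CPM per kilobase, log axis) of the rRNA and protein genes in genome order, with genes that have no row or a level of 0 marked in words. Bottom, percentage of 50-base windows also found in an annotated nuclear transcript: mt-Rnr2 is the highest gene at 8053, and the genes with over 97% of windows shared have no row, a level of 0 or, for mt-Nd3, 19.1.

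The mitochondrial share was highest in astrocyte-like wells and lowest in pericyte-like wells. Over mice with at least 5 wells of a class, the mean of the mouse means was 3.83% ± 1.41 in astrocyte-like (2.11% to 6.55%, n = 8), 2.23% ± 0.218 in oligodendrocyte-like (1.93% to 2.48%, n = 8), 2.09% ± 0.302 in endothelial-like (1.83% to 2.55%, n = 7) and 1.58% ± 0.371 in pericyte-like wells (1.17% to 2.33%, n = 8; SD over mice throughout). Endothelial-like wells of mouse 1 were only 4 and were left out. Neuroblast-like wells were at 2.49% ± 0.746 in 3 mice. The oligodendrocyte-like, endothelial-like and neuroblast-like means lie within their spread of each other, which leaves the pairing within mice unused.

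Within a mouse, astrocyte-like wells were above oligodendrocyte-like wells in 8 of 8 mice, by 1.60 ± 1.31 percentage points, and above endothelial-like wells in 7 of 7 mice, by 1.71 ± 1.43. Pericyte-like wells were below endothelial-like wells in 7 of 7 mice, by 0.621 ± 0.409, below astrocyte-like wells in 8 of 8 mice, by 2.25 ± 1.26, and below oligodendrocyte-like wells in 7 of 8 mice, by 0.649 ± 0.441. Mouse 1 was the exception, with 2.33% in pericyte-like and 2.11% in oligodendrocyte-like wells. One of its 8 pericyte-like wells was at 7.87%, and by medians over wells it stood at 1.68% against 2.06%, so that pericyte-like wells were below oligodendrocyte-like wells in 8 of 8 mice. Endothelial-like wells were below oligodendrocyte-like wells in 6 of 7 mice, by means and by medians, with a mean difference of -0.152 ± 0.210 points. On the protein genes alone that difference was -0.391 ± 0.0705 points (SD over mice). There the pericyte-like minus endothelial-like difference was -0.0648 ± 0.176 points, smaller than its spread over mice. The pericyte-like minus astrocyte-like difference was -0.764 ± 0.366 points on the protein genes.

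High single wells weigh on the astrocyte-like mean. Of 95 astrocyte-like wells 16 had a share over 5%, against 3 of 300 oligodendrocyte-like, 2 of 107 endothelial-like and 1 of 72 pericyte-like wells. The median over wells was 2.92% in astrocyte-like and 2.07% in oligodendrocyte-like wells. By medians over the wells of a mouse, astrocyte-like wells were above oligodendrocyte-like wells in 7 of 8 mice, by 1.09 ± 1.07 points. In mouse 1 they were at 1.79% against 2.06%, and without its wells over 5% its astrocyte-like mean of 4.04% became 1.32%. With wells over 5% left out in all mice, a setting chosen after seeing the data, the gap to oligodendrocyte-like wells was 0.479 ± 0.635 points (7 of 8 mice), that to endothelial-like wells 0.846 ± 0.406 (7 of 7 mice), and pericyte-like wells were 1.17 ± 0.790 points below astrocyte-like wells (7 of 8 mice). The astrocyte-like and the oligodendrocyte-like class each join 2 clusters. The astrocyte-like clusters of 32 and 63 wells had mean shares of 3.87% and 3.30%, and the oligodendrocyte-like clusters of 64 wells, led by the immediate early genes Arc and Fos, and of 236 wells had 2.10% and 2.29%.

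In the 4 largest classes depth moved with the share. The Spearman correlation of share with total counts across wells was -0.41 in oligodendrocyte-like, -0.47 in endothelial-like, -0.39 in astrocyte-like and -0.44 in pericyte-like wells, a description across wells of the same libraries that share the total as denominator. It was -0.40 in 18 oligodendrocyte precursor-like and -0.66 in 16 fibroblast-like wells, but 0.05 in 38 neuroblast-like and 0.29 in 12 smooth muscle-like wells. Median counts were 577019 in astrocyte-like and 706150 in oligodendrocyte-like wells. The nuclear 18S rRNA gene Rn18s-rs5 took 11.2% of counts in astrocyte-like and 10.5% in oligodendrocyte-like wells. The part of depth and of 18S rRNA in the class differences was not tested.

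**Figure D2:**
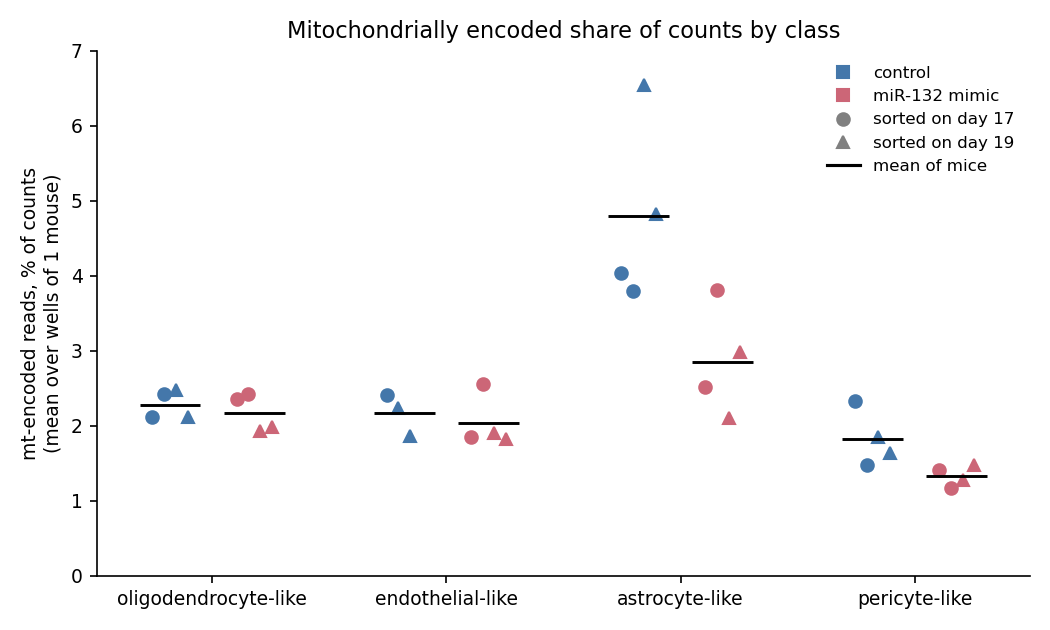
Mitochondrial share of counts (percent, mean over the wells of 1 mouse) in 4 classes, with 1 point per mouse, color for treatment, shape for sort day and a line at the mean of each group. Astrocyte-like wells reach 6.55% in control mouse 5, while the pericyte-like means stay between 1.17% and 2.33%.

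Class differences of single genes were tested on counts summed per mouse and class, with edgeR's quasi-likelihood test, the mouse as block and Benjamini-Hochberg adjustment over 7752 genes at a threshold of 0.05. Of the mitochondrial rows, 15 passed the filter on low counts. Log2 folds are given with standard errors. The scaling moves all folds of a contrast: the median log2 fold of all genes was -0.48 for astrocyte-like minus oligodendrocyte-like sums and -0.31 with library size alone. The corresponding medians were -0.72 and -0.37 for endothelial-like minus oligodendrocyte-like, -1.19 and -0.58 for pericyte-like minus oligodendrocyte-like, 0.20 and 0.03 for astrocyte-like minus endothelial-like, -0.44 and -0.18 for pericyte-like minus endothelial-like, and -0.68 and -0.22 for pericyte-like minus astrocyte-like. The median of the mitochondrial rows is therefore set against the median of all genes.

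Astrocyte-like against oligodendrocyte-like sums, 3 mitochondrial genes were higher and none lower, where 5.78% of all genes were called higher. The mt-Rnr2 level per mouse was 11796 to 32193 CPM (median 18605) in astrocyte-like and 8708 to 12345 CPM (median 10639) in oligodendrocyte-like sums, so that the ranges overlap only at their ends, and the log2 fold was 0.80 ± 0.19 (edgeR adjusted p = 0.00325). mt-Nd5, the largest complex I subunit of this genome, was at 1024 to 2821 CPM against 797 to 1007 CPM with no overlap, a log2 fold of 0.93 ± 0.31 (edgeR adjusted p = 0.0467). mt-Rnr1 had a log2 fold of 0.81 ± 0.27 (edgeR adjusted p = 0.0406). The calls of mt-Rnr1 and mt-Nd5 were lost when any 1 of the 8 mice was left out, and that of mt-Rnr2 was kept in 8 of 8 such fits. mt-Co1 (-0.01 ± 0.23) and mt-Cytb (0.09 ± 0.23) did not pass the test. The median of the 15 mitochondrial rows was 0.42, which is 0.90 above that of all genes.

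Against endothelial-like sums, astrocyte-like sums were higher in 8 mitochondrial genes, beside 9.7% of all genes called higher. These were both rRNAs, mt-Nd1, mt-Nd2, mt-Nd4, mt-Nd5, mt-Co1 and mt-Cytb, and mt-Nd5 had the widest called difference at 1.75 ± 0.34 (edgeR adjusted p = 0.00033). mt-Co1 was at 2589 to 6239 CPM in astrocyte-like and 1851 to 3228 CPM in endothelial-like sums, with overlap, and differed by 0.99 ± 0.24. Without mouse 5, or without mouse 7, 4 genes were called. In the 8 fits that leave out 1 mouse, mt-Rnr1, mt-Nd5, mt-Co1 and mt-Cytb were called in all, mt-Rnr2 in 6, mt-Nd1 in 5, mt-Nd2 in 4 and mt-Nd4 in 3. The median of the mitochondrial rows was 1.14, which is 0.93 above that of all genes.

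Endothelial-like sums had 3 protein genes lower than oligodendrocyte-like sums, where 12.6% of all genes were called lower. mt-Co1 fell by 1.00 ± 0.24 (edgeR adjusted p = 0.00257), mt-Cytb by 1.04 ± 0.25 (edgeR adjusted p = 0.00231) and mt-Nd1 by 0.99 ± 0.30 (edgeR adjusted p = 0.0163) on the log2 scale. With 1 mouse left out, mt-Co1 and mt-Cytb were called in 8 of 8 fits and mt-Nd1 in 4 of 8. The ranges of mt-Co1 did not overlap, with 3282 to 4631 CPM in oligodendrocyte-like sums. mt-Rnr2 was at 9791 to 14273 CPM in endothelial-like sums, and its fold of -0.0015 ± 0.20 took the other sign with other scalings. The mitochondrial median lay 0.10 below that of all genes, so as a group these rows stood close to the rest.

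Pericyte-like sums had 9 mitochondrial genes lower than oligodendrocyte-like sums, where 17.3% of all genes were called lower. These were both rRNAs, mt-Nd1, mt-Nd2, mt-Nd4, mt-Nd5, mt-Co1, mt-Cytb and mt-Tp. mt-Co1 was at 1182 to 2538 CPM against 3282 to 4631 CPM, without overlap, with a log2 fold of -1.65 ± 0.23 (edgeR adjusted p = 4.46e-06). With 1 mouse left out, mt-Nd2 was called in 1 of 8 fits, mt-Rnr1 in 4, mt-Nd4 in 5 and mt-Tp in 7, and the other 5 genes in all 8. The mitochondrial median of -1.15 was 0.04 above that of all genes, and with library size alone only mt-Co1 was called.

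Against endothelial-like sums 1 gene was lower in pericyte-like sums, mt-Rnr2, by -0.94 ± 0.20 (edgeR adjusted p = 0.00173), where 6% of all genes were called lower. Against astrocyte-like sums 11 were lower, where 11.6% of all genes were called lower, with mt-Rnr2 at -1.74 ± 0.19 (edgeR adjusted p = 1.71e-07), mt-Nd5 at -2.16 ± 0.33 and mt-Tq, a glutamine tRNA, at -2.99 ± 0.82. With 1 mouse left out, mt-Tp was called in 1 of 8 of these fits, mt-Tc in 3 and mt-Tq in 7, and the other 8 genes in all 8. There the mitochondrial median was 0.99 below that of all genes. mt-Nd3 and mt-Nd6 passed the test in none of the 6 class contrasts.

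The calls depend on which genes enter the fit and on the clustering. Without the filter on low counts 0 mitochondrial genes were called in astrocyte-like against oligodendrocyte-like sums (lowest edgeR adjusted p = 0.26) and 0 against endothelial-like sums (lowest edgeR adjusted p = 0.0503), while in pericyte-like sums 4 were lower against oligodendrocyte-like and 4 against astrocyte-like sums, and in endothelial-like sums 1 was lower than in oligodendrocyte-like sums. At a coarser clustering, in which the pericyte-like class takes in the smooth muscle-like wells and 16 unnamed wells, 1 gene was lower against oligodendrocyte-like sums, and against endothelial-like sums mt-Cytb was higher (0.65) in place of mt-Rnr2 lower.

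**Figure D3:**
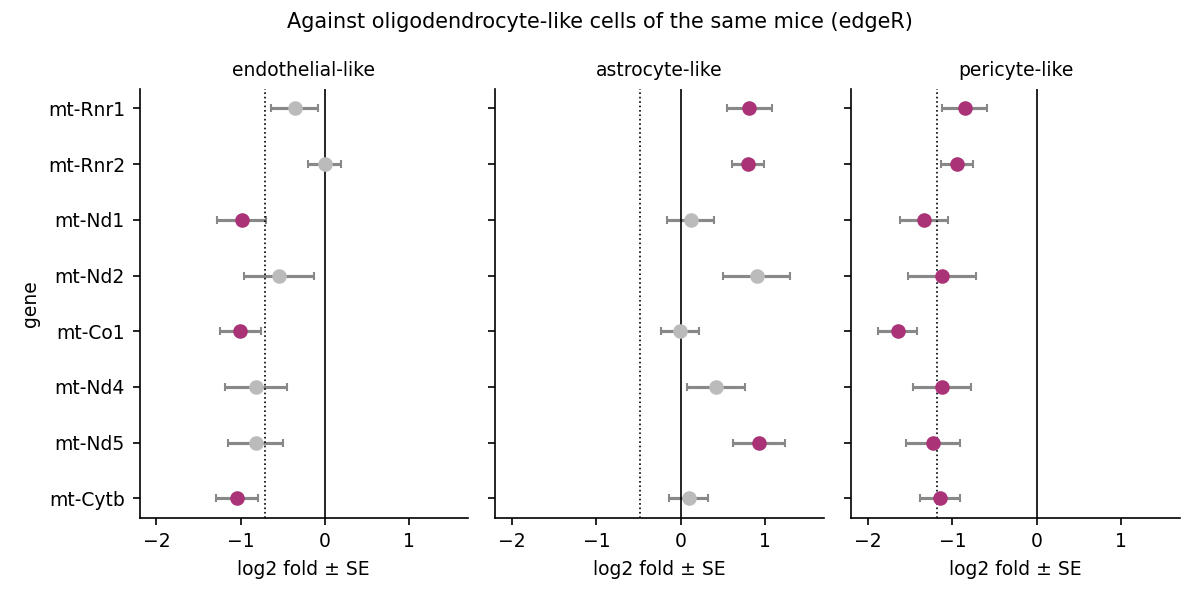
Log2 fold ± SE of 8 mitochondrial genes in endothelial-like, astrocyte-like and pericyte-like against oligodendrocyte-like sums (edgeR), with called genes in color, the others in gray and a dotted line at the median of all genes. In pericyte-like sums the genes scatter around the all-gene median of -1.19, and in astrocyte-like sums mt-Rnr2 lies at 0.80.

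The make-up of the mitochondrial counts differed between classes. mt-Rnr2 took 48.7% ± 2.32 of mitochondrial counts in oligodendrocyte-like sums (44.2% to 51.5%, n = 8), 54.8% ± 3.07 in pericyte-like (51.2% to 59.6%, n = 8), 57.5% ± 2.11 in astrocyte-like (54.2% to 61.8%, n = 8) and 63.6% ± 3.07 in endothelial-like sums (59.1% to 67.4%, n = 7; SD over mice). mt-Co1 took 19.2% ± 1.56 in oligodendrocyte-like sums and 12.5% to 13.3% on average in the other 3 classes. The range of mt-Rnr2 in oligodendrocyte-like sums overlaps that in pericyte-like sums only between 51.2% and 51.5%, and not those in the other 2 classes.

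A ratio of mitochondrial genes does not depend on the scaling. mt-Rnr2 over mt-Co1 counts was 2.56 ± 0.305 in oligodendrocyte-like sums and was higher within each mouse in the other classes. It was 5.19 ± 0.942 in endothelial-like (7 of 7 mice, 2.03-fold), 4.45 ± 0.345 in astrocyte-like (8 of 8 mice, 1.75-fold) and 4.29 ± 0.969 in pericyte-like sums (8 of 8 mice, 1.65-fold). mt-Nd5 over mt-Co1 was 0.441 ± 0.0871 in astrocyte-like against 0.223 ± 0.0197 in oligodendrocyte-like sums (8 of 8 mice higher, 1.95-fold). The ratio of the rRNAs, mt-Rnr1 over mt-Rnr2, was 0.0849 ± 0.00678 in endothelial-like and 0.110 ± 0.00738 in oligodendrocyte-like sums (7 of 7 mice lower), while in astrocyte-like sums it was higher in 3 mice and lower in 5. These ratios show unequal change and not which gene of a pair moved.

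**Figure D4:**
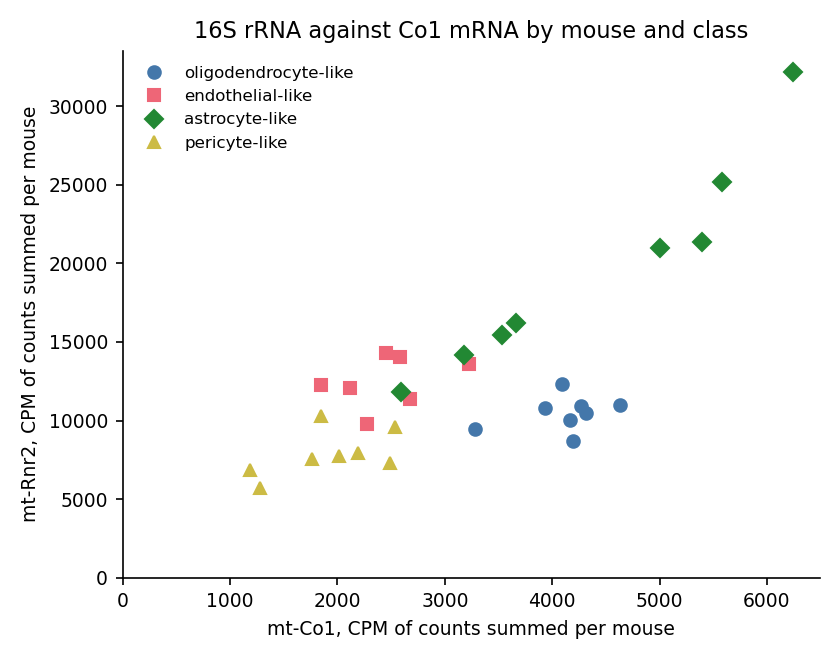
mt-Rnr2 against mt-Co1 level (CPM of summed counts, linear axes), 1 point per mouse and class. Oligodendrocyte-like sums have a ratio of 2.56 on average and lie to the right of endothelial-like sums, at 5.19.

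Respiratory chain subunits encoded in the nucleus could enter the clustering, so their values are a description. Of 76 genes of complexes I to V, 75 passed the filter. In astrocyte-like against oligodendrocyte-like sums 1 of 75 was higher and 0 lower, where 5.78% and 8.19% of all genes were called, with a median log2 fold of 0.33 beside -0.48 for all genes, and 61 of 75 folds were positive. The gene was Ndufc2, a small complex I subunit, at 499 ± 225 CPM against 93.9 ± 25.1 CPM. In astrocyte-like against endothelial-like sums 8 of 75 were higher and 0 lower, where 9.7% and 6.53% of all genes were called, with a median of 0.83 beside 0.20. Among them were Ndufc2, Atp5b, the catalytic beta subunit of ATP synthase (1816 ± 270 against 1000 ± 196 CPM), and Cox8a of complex IV (500 ± 94.9 against 202 ± 99.7 CPM).

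In pericyte-like against oligodendrocyte-like sums 3 of 75 nuclear subunits were lower and 0 higher, where 17.3% and 5.31% of all genes were called, with a median of -0.40 beside -1.19. Ndufa4, a subunit of complex IV, was at 0 in 6 of 8 mice in pericyte-like sums and at 94.7 ± 19.4 CPM in oligodendrocyte-like sums. Cox4i1 of complex IV was at 416 ± 202 against 616 ± 38.9 CPM. Pericyte-like against endothelial-like sums had 2 higher and 1 lower, where 3.44% and 6% of all genes were called. Pericyte-like against astrocyte-like sums had 0 higher and 6 lower, where 4.44% and 11.6% were called. Endothelial-like against oligodendrocyte-like sums had 0 higher and 1 lower, which was Ndufb9, where 6.41% and 12.6% were called. In each of these contrasts the count of subunits was near or below what the share of all genes gives.

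Of 83 nuclear genes for mitochondrial transcription, RNA processing, translation and biogenesis, 31 passed the filter in the class contrasts. The one called in any of them was Lrpprc, which stabilises mitochondrial mRNAs. It was lower in endothelial-like and pericyte-like than in oligodendrocyte-like sums, where 12.6% and 17.3% of all genes were called lower. In astrocyte-like sums it was higher than in endothelial-like sums, where 9.7% were called higher. Pericyte-like sums had it lower than astrocyte-like sums, where 11.6% were called lower. The count of 1 in 31 was below each of these shares. Lrpprc was at 49.0 ± 18.2 CPM in oligodendrocyte-like sums, with a count in only 76 of 300 oligodendrocyte-like wells. In astrocyte-like sums it was at 31.9 ± 28.7 CPM, with 2 of 8 mice at 0. It was at 0 in 6 of 7 mice in endothelial-like and 6 of 8 mice in pericyte-like sums.

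The mimic comparison asked whether miR-132 overexpression moved these genes. Over all kept wells the share was 2.50% ± 0.291 in control and 2.19% ± 0.237 in mimic mice (SD, n = 4 each), a difference of -0.311 points, and -0.151 and -0.472 within the sort days. The groups overlap. With edgeR, sort day as covariate, 0 of 8829 genes were called (0%), 0 of them among 17 mitochondrial genes, with 394 genes and 0 mitochondrial genes at an unadjusted p under 0.05, and DESeq2 called 12 genes, none mitochondrial. Of the 17 folds 14 were negative, with a median of -0.11 beside 0.00042 for all genes. mt-Rnr1 was at -0.23 ± 0.15, mt-Rnr2 at -0.19 ± 0.15, mt-Co1 at -0.17 ± 0.16 and mt-Cytb at -0.08 ± 0.18. With the title map the share difference was 0.00155 points and mt-Rnr1, mt-Co1 and mt-Cytb were positive.

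Astrocyte-like wells showed the widest gap in share between treatments, and it did not pass a test on genes. The share was 4.04%, 3.80%, 6.55% and 4.82% in control mice 1, 3, 5 and 7, and 2.52%, 3.81%, 2.11% and 2.98% in mimic mice 2, 4, 6 and 8. Only mimic mouse 4 lies within the control range, just above control mouse 3. The difference was -1.95 points, and -0.756 and -3.14 within the sort days, and with the title map it was -0.319. On the protein genes alone it was -0.612. The medians over wells were 1.79%, 3.69%, 4.75% and 4.59% in the control mice and 2.27%, 3.80%, 2.19% and 2.52% in the mimic mice, so that by medians all 4 mimic mice lie within the control range, with a mean difference of -1.01 points.

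The level of mt-Rnr2 in astrocyte-like sums was 16215, 20996, 32193 and 25172 CPM in the control mice and 14176, 21341, 11796 and 15442 CPM in the mimic mice, again with only mimic mouse 4 within the control range. Its log2 fold was -0.64 ± 0.25 (edgeR adjusted p = 0.999), and mt-Rnr1 was at -0.76 ± 0.28 (edgeR adjusted p = 0.999). mt-Nd5 (-0.56 ± 0.30), mt-Co1 (-0.56 ± 0.27) and mt-Cytb (-0.45 ± 0.23) pointed the same way. Of 14 mitochondrial rows 13 had negative folds, with a median of -0.56 beside 0.21 for all 7575 genes, of which 0% were called. At an unadjusted p under 0.05 there were 136 genes, 2 of them mitochondrial, and DESeq2 called 32, none mitochondrial. Without the filter on low counts mt-Rnr2 was called (-0.60, edgeR adjusted p = 0.000818), and with the title map mt-Nd5 (0.0050) and mt-Co1 (0.0039) were positive.

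Other measures moved with treatment in astrocyte-like wells. The 18S rRNA gene took 11.97% to 15.58% of counts in control and 8.66% to 11.0% in mimic mice, without overlap. Wells with a share over 5% numbered 12 of 37 in control and 4 of 58 in mimic mice. With these wells left out, a setting chosen after seeing the data, the mean share was 1.32%, 3.46%, 3.14% and 2.70% in the control mice and 2.38%, 3.58%, 2.11% and 2.47% in the mimic mice. The group means were then 2.65% ± 0.945 and 2.63% ± 0.647 (SD, n = 4 each), a difference of -0.0199 points. These wells are left out by the measured share itself, so this is a description. Median counts per mouse overlapped, with 459777 to 630031 in control and 418434 to 640578 in mimic mice. With nuclear rRNA genes left out of the total, the share difference was -2.75 points. The part of 18S rRNA in the difference was not tested.

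Pericyte-like wells had a share of 1.83% ± 0.373 in control and 1.33% ± 0.140 in mimic mice, a difference of -0.494 points, with 1.47% to 2.33% against 1.17% to 1.48% and an overlap of mimic mouse 8 with control mouse 3. With the title map the difference was 0.311, and on the protein genes alone it was -0.158. The 18S share was 9.93% to 16.4% in control and 8.41% to 10.4% in mimic mice, and its part was not tested. mt-Rnr2 was at -0.43 ± 0.16 (edgeR adjusted p = 1) and mt-Nd5 at -1.06 ± 0.48. Of 5357 genes 0% were called, 49 had an unadjusted p under 0.05, among them 1 of 10 mitochondrial rows, and DESeq2 called 25, none mitochondrial.

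Oligodendrocyte-like wells differed by -0.109 points (2.28% ± 0.198 in control, 2.17% ± 0.252 in mimic mice), with opposite signs on the sort days (0.119 and -0.338). Endothelial-like wells differed by -0.139 points (2.17% ± 0.276 in 3 control mice, 2.03% ± 0.348 in 4 mimic mice). In both classes the groups overlap, and with 1 mouse left out the difference was -0.191 to -0.0292 points in oligodendrocyte-like and -0.312 to -0.0204 in endothelial-like wells. edgeR called 0% of 7477 genes in oligodendrocyte-like sums (220 at an unadjusted p under 0.05, DESeq2 3) and 0% of 5847 in endothelial-like sums (122 at an unadjusted p under 0.05, DESeq2 33), and no mitochondrial row was called by either tool. Whether the mimic fold differed between classes was tested as a class-by-treatment term over 7781 genes: 0% were called for endothelial-like and for astrocyte-like against oligodendrocyte-like sums and 0.0129% for pericyte-like, with none of 15 mitochondrial rows. For mt-Rnr2 the term was -0.51 ± 0.37 in astrocyte-like against oligodendrocyte-like sums.

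**Figure D5:**
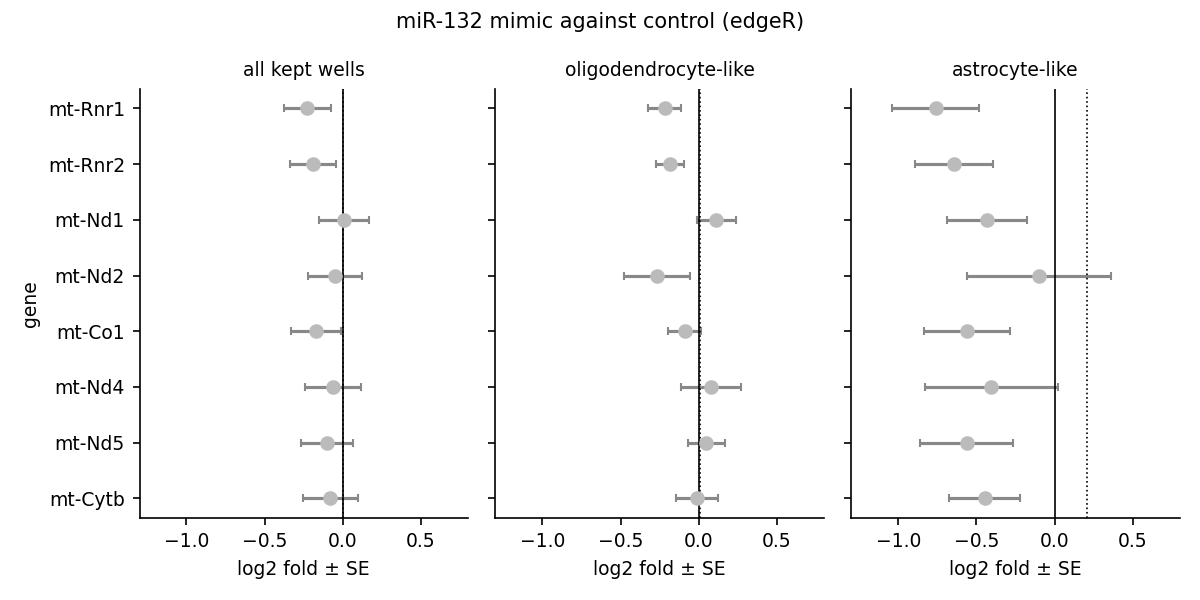
Log2 fold ± SE, mimic over control (edgeR), of 8 mitochondrial genes over all kept wells and in oligodendrocyte-like and astrocyte-like sums, with a dotted line at the median of all genes. All points are gray since none was called, and in astrocyte-like sums mt-Rnr2 lies at -0.64 beside an all-gene median of 0.21.

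Nuclear respiratory chain subunits had a median mimic fold of -0.03 over 75 genes in astrocyte-like sums, beside 0.21 for all genes and -0.56 for the mitochondrial rows. Of these folds 36 were positive and 0 passed in either direction, and the difference between the lists was not tested. Over all kept wells their median was 0.04 beside 0.00042 for all genes, and 0 of 75 passed. Of the genes for mitochondrial expression and regulation, 0 of 46 passed over all kept wells and 0 of 36 in astrocyte-like sums.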

How the data were processed

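Counts were deposited by the authors as whole-number read counts per gene and well in 1 table of 768 wells; the submitters' processing notes name build mm10, STAR, featureCounts 1.5.1 (Subread), FastQC and Seurat 2.3.1, with settings not given in the sources used here. Per the labels' protocols the libraries are Smart-seq2, with oligo-dT priming and no molecular identifiers, so intervals would cover counting error only and none are printed.

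Wells were assigned to mice through the sample descriptions, and the title map was an alternative for the mimic tests and the shares alone. Clustering (scanpy 1.11.5, 2000 variable genes without mt- rows, 20 components, 15 neighbours, Leiden resolution 1) gave classes named from marker lists, without a doublet caller since cells were sorted singly. Counts were summed per mouse and class with at least 5 wells. Genes detected in 10% or more of the wells and passing filterByExpr entered edgeR 4.0.16 (TMM, quasi-likelihood test, two-sided, Benjamini-Hochberg), with sort day as covariate for the mimic and the mouse as block between classes; DESeq2 1.42.0, other scalings, filters, maps and clusterings were alternatives. P-values of the mimic tests measure the spread between mice of a treatment, and those of the class tests the spread of class differences between mice. Up to 8 mice entered a fit, and 7 gave endothelial-like sums. The scripts were tested on simulated data. Copies were sought in annotated transcripts of GENCODE M21 only.

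Every mt- row is accounted for; the 5 highest tRNA genes and at most 3 nuclear genes per contrast and direction, by smallest p, were named. Members, lists and tests were chosen with earlier results of these data known.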

Additional observations from a re-analysis of the deposited data

Results flagged for a closer look

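The 93 wells outside the limits had a median mitochondrial share of 15.6%, against 2.03% in the kept wells. In 58 of them with at least 50000 counts the median was 16.9%. In those, mt-Rnr2 took 68.2% of mitochondrial counts against 53.1% in kept wells, mt-Co1 7.85% against 16.2% and mt-Cytb 7.40% against 13.1%. Of the 93 wells, mice 3 and 4 had 21 each and the other mice 4 to 14.

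Of 65 groups of mice examined, 4 held a mouse far from the others, where chance gives about 1 in 20. In endothelial-like wells of mimic mice, mouse 4 had a share of 2.55%, with the next, mouse 6, at 1.91%. In oligodendrocyte-like sums, mt-Nd2 was at 236 CPM in control mouse 5 (next 171 in mouse 3) and mt-Co1 at 3282 CPM in mimic mouse 6 (next 4195 in mouse 8). In endothelial-like sums of mimic mice, mt-Nd4 was at 275 CPM in mouse 2 (next 179 in mouse 4).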

How the results depend on the processing

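Of the recomputed values, 222 of 246 counts of called genes stayed within 1.5 times of the reported count. For gene folds, 575 of 656 kept their direction and side of the threshold, and 198 of 207 shares moved by less than the spread between mice. Where a value below did not, the cause was not tested unless fewer samples or genes entered. The 246 counts pool class contrasts with mimic and class-by-treatment tests, where 0 mitochondrial genes were called and a recomputed 0 counts as unchanged. Apart from the mimic in astrocyte-like sums, all changed counts were in class contrasts. A limit of 15% on the share removed only 1 well, which was unnamed and enters no class sum. The pooled 222 of 246 thus understates how often the class counts moved. O, E, A and P stand for the oligodendrocyte-like, endothelial-like, astrocyte-like and pericyte-like sums. The counts of mitochondrial genes called were 3 for E minus O, 3 for A minus O, 9 for P minus O, 8 for A minus E, 1 for P minus E and 11 for P minus A. Without the low-count filter they were 1 for E minus O, 0 for A minus O, 4 for P minus O, 0 for A minus E and 4 for P minus A, and 1 gene was called for the mimic in A. DESeq2 gave 5 for E minus O, 5 for A minus O and 2 for P minus E. Leiden resolution 0.5, at which the pericyte-like class also held 12 smooth muscle-like and 16 unnamed wells, gave 6 for E minus O, 1 for P minus O, 6 for P minus A and 1 for P minus E. That last gene was mt-Cytb, higher by 0.65. The same resolution turned mt-Co1 in P minus E (0.26) and mt-Cytb in A minus O (-0.043). Library size alone gave 1 for P minus O. Counts within 1.5 times can still differ, as with 6 for P minus O with RLE factors and 2 for A minus O with at least 10 wells per sum. Leaving out each mouse gave 1 to 2 for A minus O (without mouse 2, 1 higher and 1 lower), 4 to 8 for A minus E and 1 to 2 for P minus E, where 2 came without mouse 4. Left out in turn, mice changed the sign of mt-Cytb with the mimic over all wells (-0.18 to 0.034, positive without mouse 6), mt-Rnr2 in E minus O (-0.022 to 0.12), mt-Co1 in A minus O (-0.19 to 0.019) and mt-Cytb in P minus E (-0.21 to 0.036). mt-Rnr2 in E minus O was 0.072 with DESeq2 and with RLE factors, 0.35 with library size alone and 0.058 with at least 10 wells per sum. mt-Co1 in A minus O was 0.14 with DESeq2 and with RLE factors, 0.15 with library size alone and 0.033 with no replicate block. Removing this block on the mouse, whose number pairs classes of the same animal, moved no count of calls by over 1.5 times, and control and mimic groups share no numbers. mt-Cytb was -0.18 in A minus O without the filter, and in P minus E 0.029 with DESeq2 and with RLE factors and 0.17 with library size alone. With the title map the mimic folds were 0.041 (mt-Rnr1), 0.12 (mt-Co1) and 0.032 (mt-Cytb) over all wells, 0.0050 (mt-Nd5) and 0.0039 (mt-Co1) in A, and 0.14 (mt-Rnr2) and 0.32 (mt-Nd5) in P, and the share differences were 0.00155 over all wells, -0.319 in A and 0.311 in P. With wells over 5% left out, chosen after seeing the data, the mimic share difference in A was -0.0199. On protein genes alone the mimic share difference was -0.612 in A and -0.158 in P, and the class differences were -0.391 for E minus O, -0.0648 for P minus E and -0.764 for P minus A. With at least 10 wells per sum, contrasts with P and the mimic within E, A and P could not be fitted. Depth limits mt-Nd3, mt-Nd6 and the tRNA genes most.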
